A study of Mus musculus with 8 samples.

Results

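Genes of the major histocompatibility complex (MHC, called H2 in the mouse) and of antigen presentation were examined in regulatory T cells (Treg) of bone marrow and spleen. They were taken by name from the deposited gene tables: every gene whose name begins with H2-, except H2-Ke2 and H2-Ke6, together with B2m, Tap1, Tap2, Tapbp, Tapbpl, Nlrc5, Psmb8, Psmb9, Psmb10, Cd74 and Ciita. The rule gave 52 of 38215 genes and used no expression value. Of these, 30 are class I heavy chain genes or pseudogenes, with H2-K1 and H2-D1 as the 2 classical ones and 28 non-classical ones, and 11 are class II chain genes or pseudogenes. The other 11 serve presentation: B2m, 4 genes of peptide transport and loading, 3 subunits of the immunoproteasome, the invariant chain Cd74 and the transactivators Nlrc5 and Ciita. On GRCm38, 46 of the 52 lie on chromosome 17, most of them within the H2 complex. RNAseq was done on FoxP3+ cells that were sorted by their green fluorescent protein from naïve mice carrying a FoxP3-GFP reporter on the C57Bl/6 background, aged 12 weeks. There were 4 BM-Treg and 4 SP-Treg libraries, described as biological replicates and with no treatment in either group. By the labels, BM-Treg replicates 1 to 3 were female and of batch 1, while BM-Treg replicate 4 and all SP-Treg replicates were male and of batch 3. Batch, sex and tissue are therefore almost the same split of the libraries. Their shares in a difference cannot be told apart beyond what a single BM-Treg library of batch 3 shows. For sex this rests on the labels, since the methods name female mice unless otherwise indicated.

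Class I molecules sit on nearly all nucleated cells and pair a heavy chain with B2m. Their peptides are cut by the proteasome, carried into the endoplasmic reticulum by the Tap1/Tap2 transporter and loaded with the help of tapasin (Tapbp), calreticulin (Calr) and Pdia3. Class II molecules are αβ pairs (H2-Aa with H2-Ab1 form I-A) that travel with the invariant chain Cd74 and exchange its remnant for peptide with the help of H2-DM, which H2-O holds back. They belong to B cells, dendritic cells and macrophages, and mouse T cells make little of them. NLRC5 is the transactivator of class I genes and CIITA that of class II genes, both acting through a shared set of promoter-bound factors.

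Expected counts on genes, the estimated numbers of reads that the authors deposited, summed to between 12427136 and 21921252 per library. The labelled cell type was checked against its markers. The 8 T cell and Treg markers (Cd3d, Cd3e, Cd3g, Cd4, Foxp3, Il2ra, Ctla4 and Ikzf2) were present in every library, and their summed level was 7417 to 8829 CPM (counts scaled by TMM to the same library size) in BM-Treg, with 8201 to 8987 CPM in SP-Treg. SP-Treg replicate 2 stood apart in markers of other cells: 9 B cell markers summed to 147 CPM there, against 18, 37.1 and 31.5 CPM in the other SP-Treg libraries and 16 to 22.5 CPM in BM-Treg, and all 9 were highest in it. No B cell marker was at 0 in every library, and Ms4a1 in SP-Treg replicate 2 was at 14 CPM against 0.287 to 1.67 CPM in the other 7 libraries. Dendritic cell markers summed to 44 CPM in it and to 17 to 29.8 CPM elsewhere, with 5 of 7 highest in it, while markers of monocytes and macrophages (at most 30.1 CPM in sum) were not highest in that library. Its sums were also the highest for CD8 T cell markers (41 CPM, against 13.2 to 22.7 CPM in the other SP-Treg and 10.9 to 12.6 CPM in BM-Treg libraries, which did not overlap), plasma cell markers (27.7 CPM, against 0.251 to 11.1 CPM elsewhere), plasmacytoid dendritic cell markers (33.1 CPM, against 17.4 to 32.5 CPM) and neutrophil markers (17.6 CPM, against 0.215 to 10 CPM). In SP-Treg replicate 2 the plasmacytoid sum was nearly all Pacsin1, at 32.1 CPM against 17.2 to 32 CPM in the other 7 libraries. Of its 5 markers 3 were highest there, but Siglech was not (0.319 CPM, against 0 to 0.821 CPM elsewhere). Zbtb46 made 32 CPM of the dendritic cell sum there, and was at 10.9 to 26.1 CPM elsewhere. Red cell transcripts were at 188, 454 and 291 CPM in SP-Treg replicates 2 to 4, at 1.94 CPM in SP-Treg replicate 1 and at 12.6 to 32.6 CPM in BM-Treg.

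Of the 52 genes, 33 passed the expression filter and were tested, and none differed between BM-Treg and SP-Treg at an adjusted p of 0.05 (edgeR's quasi-likelihood test, Benjamini-Hochberg over all genes). The background over all 13397 genes tested was 8.75% called, with 3.72% higher and 5.02% lower in BM-Treg. DESeq2 and limma-voom also called 0 of the 33, against 12.7% and 9.09% of all genes. At least for H2-Aa and H2-Ab1 DESeq2 gave no adjusted p, so its count is no result for these genes. At an unadjusted p of 0.05, 8 of the 33 (24.2%) would pass, close to the 23.3% of all genes that do. These were H2-Q4, H2-Q5 and H2-Q10 on the side of BM-Treg, and H2-DMb2, H2-Q2, H2-Oa, H2-M3 and Nlrc5 on the side of SP-Treg. The median log2 fold change (BM-Treg minus SP-Treg) was −0.19 over the 33 and −0.01 over all genes tested, and without SP-Treg replicate 2 it was −0.05 over the 33 and −0.02 over all. In CPM the libraries of the tissues did not overlap in 5 of the 33 (16.2% of all genes tested), H2-Q5 with BM-Treg above (1 of 33, against 7.58% of all genes tested) and H2-M3, H2-Q2, H2-Oa and Nlrc5 with SP-Treg above (4 of 33, against 8.57%). In FPKM they did not overlap in 3 of the 33 (14.2% of all genes tested), H2-Q7 and H2-Q10 with BM-Treg above (9.23% of all) and H2-Q2 with SP-Treg above (4.94% of all), so that H2-Q2 alone was apart on both scales. The scale also shifted the split over all genes, with 499 higher and 673 lower in BM-Treg by edgeR and 482 higher and 283 lower with limma-trend on log2(FPKM + 1).

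**Figure D1:**
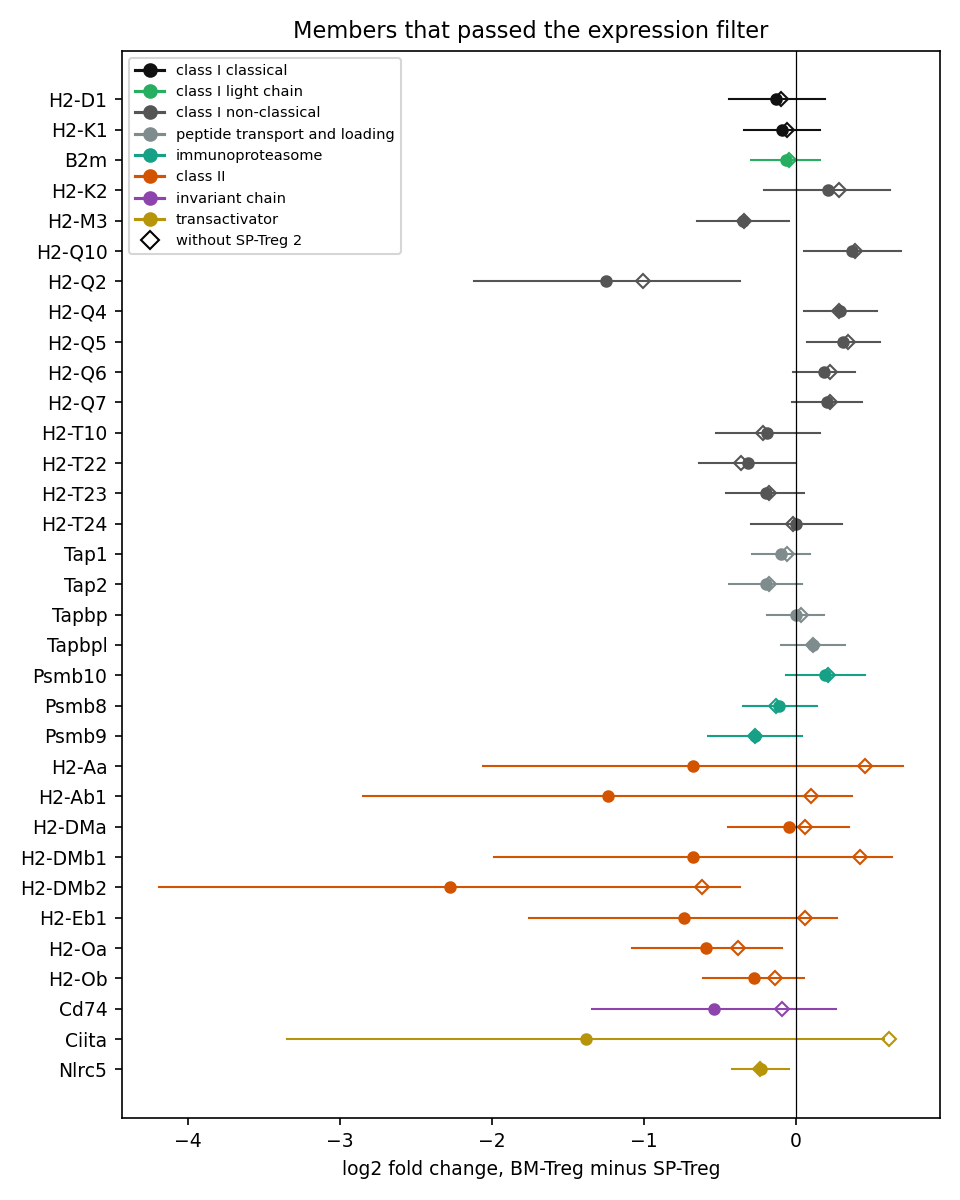
Log2 fold change of the 33 tested genes, BM-Treg minus SP-Treg, grouped by role. Filled circles are the fit of all 8 libraries, with lines for approximate 95% intervals from the SE. Open diamonds are the fit without SP-Treg replicate 2. The class I genes sit between −0.35 and 0.37 apart from H2-Q2 at −1.25, while the class II genes and Ciita move rightward when SP-Treg replicate 2 is left out.

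The classical class I genes and B2m were among the most abundant mRNAs of these Treg and were at like levels in both tissues. On the FPKM scale, which divides by transcript length and so allows comparison between genes, B2m ranked 6, H2-K1 7 and H2-D1 38 of 38215 genes by mean level. B2m (chr2:122147686-122153083), the light chain shared by class I molecules, was at FPKM 5504, 6535, 7310.0 and 6613 in BM-Treg replicates 1 to 4 and 6965, 6557, 5983 and 6585 in SP-Treg replicates 1 to 4. Its libraries overlapped and its spread over all 8 was 8.53% of the mean, and it did not pass the test (log2 fold change −0.07, SE 0.12, 95% interval −0.30 to 0.16, adjusted p = 0.774). H2-K1 (chr17:33996017-34000333), the H-2K heavy chain, was at FPKM 2659.9, 3509, 3790.1 and 3068 in BM-Treg replicates 1 to 4 and 3599, 3286, 2586 and 2942 in SP-Treg replicates 1 to 4. BM-Treg replicate 1 and SP-Treg replicate 3 were the 2 lowest libraries, and the difference did not pass the test (log2 fold change −0.09, SE 0.13, 95% interval −0.34 to 0.16, adjusted p = 0.729). H2-D1 (chr17:35262730-35267499), the H-2D heavy chain, had mean FPKM of 943 ± 160.3 in BM-Treg against 970.3 ± 222 in SP-Treg (SD, n = 4 each), with the same 2 libraries lowest at 705 and 701. It lay below H2-K1 in all 8 libraries and did not pass the test either (log2 fold change -0.13, SE 0.16, adjusted p = 0.686). Within batch 3, where BM-Treg replicate 4 alone stands for its tissue and no test is possible, the log2 fold changes of H2-K1, H2-D1 and B2m were 0.04, 0.12 and 0.04.

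The stretch of DNA before the start of class I genes is shown because it carries the short motifs through which these genes are switched on together. RefSeq promoter windows (GRCm38.p6, 250 bases before to 50 after a start) were found for 36 of the 52 genes. The letters GGGATTCCC, of the type bound by NF-κB, and TTTCACTT, of the type bound by interferon regulatory factors, were searched on both strands, with TGATGAC (CRE type, as in the X2 box) and TGATTGG (inverted CCAAT, as in the Y box). Capitals mark every match in the windows from 180 to 3 bases before the start of H2-K1 (chr17:34000350-34000527, minus strand), H2-Q7 (chr17:35438975-35439152, plus strand) and H2-Q4 (chr17:35379437-35379614, plus strand). For H2-D1 the stretch from the NF-κB type to the IRF type match is shown (chr17:35262924-35262951, plus strand), since an annotated longer transcript of H2-D1 covers that window.
H2-K1: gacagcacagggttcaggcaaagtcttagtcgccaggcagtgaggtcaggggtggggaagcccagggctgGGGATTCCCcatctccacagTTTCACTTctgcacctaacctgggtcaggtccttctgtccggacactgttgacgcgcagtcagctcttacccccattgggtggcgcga
H2-D1: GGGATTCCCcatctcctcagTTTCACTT
H2-Q7: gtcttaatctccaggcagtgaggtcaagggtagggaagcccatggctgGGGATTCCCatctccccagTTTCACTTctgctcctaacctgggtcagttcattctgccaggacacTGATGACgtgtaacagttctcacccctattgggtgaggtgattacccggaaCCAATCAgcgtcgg
H2-Q4: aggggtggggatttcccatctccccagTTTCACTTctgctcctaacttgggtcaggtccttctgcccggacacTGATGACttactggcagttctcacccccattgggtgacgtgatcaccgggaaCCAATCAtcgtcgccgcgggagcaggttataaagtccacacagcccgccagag

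Among the 22 class I genes with a window, 4 held the NF-κB type letters (H2-D1, H2-K1, H2-Q6 and H2-Q7), against 0.353% of all 32851 windows. The IRF type letters were in 9 of 22, among them all of H2-K1, H2-D1, H2-Q4, H2-Q6, H2-Q7 and H2-Q10, against 1.6% of all windows. The CRE type letters were in 7 of 22 (3.23% of all windows) and the inverted CCAAT letters in 15 of 22 (7.82% of all windows). The letters were picked after these windows had been read, so the shares are a description and not a test. A gene counts if any of its windows holds a match, while the background counts windows. A match describes the letters only.

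Non-classical class I genes differed among themselves far more than between the tissues. H2-Q7, a gene of the Qa-2 antigen, led them, and the 8 H2-Q genes together made 21.6% to 29.4% of the summed class I FPKM of a library. Their summed FPKM was 1488, 1715, 1624 and 1553 in BM-Treg replicates 1 to 4 and 1442, 1374, 1326 and 1395 in SP-Treg replicates 1 to 4, so that the lowest BM-Treg library lay above the highest SP-Treg library. This sum was chosen after the data were seen and was not tested. Of single genes tested, 9.23% lay without overlap in FPKM with BM-Treg above and 4.94% with SP-Treg above. H2-Q7 (chr17:35439155-35443773) had CPM 2616, 2685, 2566 and 2462 in BM-Treg replicates 1 to 4 and 1840.5, 2332, 2596 and 2202 in SP-Treg replicates 1 to 4. On this scale the groups overlapped, since SP-Treg replicate 3 lay among the BM-Treg libraries, whereas in FPKM they did not, with 729 to 799 in BM-Treg and 641 to 689.7 in SP-Treg. H2-Q7 did not pass the test (log2 fold change 0.20, SE 0.12, adjusted p = 0.324), nor with limma-trend on log2(FPKM + 1) (log2 fold change 0.19, adjusted p = 0.368).

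H2-Q5 (chr17:35394126-35397800), listed as a pseudogene in the tables, had CPM 182, 224, 215 and 200.3 in BM-Treg replicates 1 to 4 and 128, 177, 177 and 182 in SP-Treg replicates 1 to 4. All BM-Treg libraries were above all SP-Treg libraries, with little space between 182 and 182 CPM, and the difference did not pass after adjustment (log2 fold change 0.31, SE 0.12, adjusted p = 0.131). In FPKM the groups of H2-Q5 overlapped, as BM-Treg replicate 1 (304) lay below all SP-Treg libraries (306 to 347), and limma-trend on log2(FPKM + 1) gave a log2 fold change of 0.13 (adjusted p = 0.595). H2-Q4 (log2 fold change 0.29, SE 0.12, adjusted p = 0.164), H2-Q10 (log2 fold change 0.37, SE 0.16, adjusted p = 0.195) and H2-Q6 (log2 fold change 0.18, SE 0.10, adjusted p = 0.316) lay on the same side without passing, and in each of them the groups overlapped in CPM (in FPKM those of H2-Q10 did not). H2-Q4 was the only one of the 33 genes called when libraries were left out in turn, and without SP-Treg replicate 3 its adjusted p was 0.0397 by edgeR. H2-Q2 went the other way from a far lower level, at CPM 0.383, 0.787, 0.963 and 1 in BM-Treg replicates 1 to 4 and 2.01, 2.71, 1.17 and 1.54 in SP-Treg replicates 1 to 4. No BM-Treg library reached the lowest SP-Treg one, yet at these few counts the test was not passed (log2 fold change -1.25, SE 0.45, adjusted p = 0.101), and in batch 3 alone the log2 fold change was −0.75. Within batch 3 the other 5 tested H2-Q genes had log2 fold changes of 0.14 to 0.34.

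**Figure D2:**
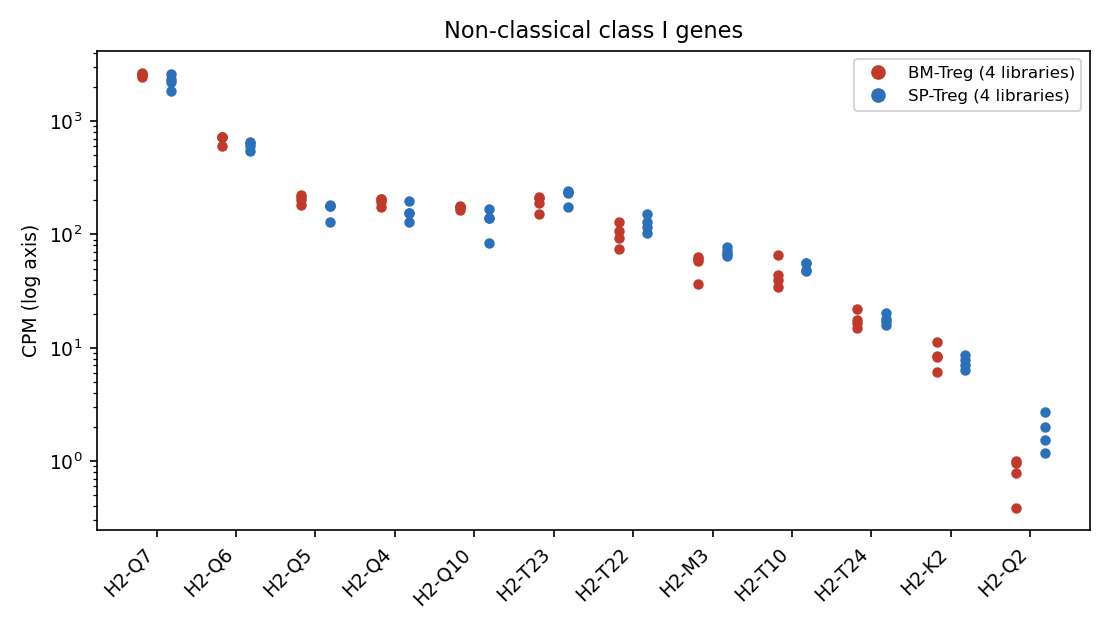
CPM of 12 non-classical class I genes on a log axis, with 1 point per library, BM-Treg in red and SP-Treg in blue. Levels of the genes spread from about 1 CPM (H2-Q2) to 2685 CPM (H2-Q7), and the red and blue points overlap except in H2-Q5, H2-M3 and H2-Q2.

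The other non-classical genes were lower. H2-T23 codes for Qa-1, which is read by CD94/NKG2 receptors and by the T cell receptor, and its mean level was 192 ± 28 in BM-Treg against 221 ± 31.4 in SP-Treg CPM (SD, n = 4 each; log2 fold change -0.20, SE 0.13, adjusted p = 0.373). H2-T22 and H2-T10, known as ligands of γδ T cells, had log2 fold changes of −0.32 and −0.19 (adjusted p = 0.26 and 0.572), but in batch 3 alone they had 0.05 and 0.35. H2-M3, which presents formylated peptides of bacteria and mitochondria, had CPM 36.3, 58.6, 61.3 and 63.9 in BM-Treg replicates 1 to 4 and 76.9, 71, 64.9 and 66.8 in SP-Treg replicates 1 to 4. SP-Treg libraries were all above BM-Treg libraries in CPM, though not in FPKM, with BM-Treg replicate 1 lowest, and the difference did not pass (log2 fold change -0.35, SE 0.15, adjusted p = 0.189). H2-T24 was level between the tissues at 17.8 ± 2.99 in BM-Treg against 17.8 ± 1.86 in SP-Treg CPM, and H2-K2, listed as a pseudogene, was at 8.57 ± 2.1 in BM-Treg against 7.46 ± 0.978 in SP-Treg CPM; neither passed (adjusted p = 0.999 and 0.607).

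The genes that supply class I with peptide were expressed in every library and none passed the test. The 7 genes of peptide loading and of the immunoproteasome summed to 641, 777, 837 and 801 FPKM in BM-Treg replicates 1 to 4 and to 863, 791, 647 and 926 FPKM in SP-Treg replicates 1 to 4, so the groups overlapped. Psmb9, a catalytic subunit that replaces Psmb6 in the immunoproteasome, was the most abundant of them per length and had CPM 152, 214, 225 and 232 in BM-Treg replicates 1 to 4 and 220.4, 248, 202 and 320.1 in SP-Treg replicates 1 to 4. SP-Treg replicate 4 was the highest and BM-Treg replicate 1 the lowest (log2 fold change -0.27, SE 0.16, adjusted p = 0.342). Psmb8, which replaces Psmb5, had CPM 172, 219.6, 229 and 219.6 in BM-Treg replicates 1 to 4 and 232, 216, 187 and 271 in SP-Treg replicates 1 to 4. The same 2 libraries were its extremes (log2 fold change -0.11, SE 0.13, adjusted p = 0.65). Psmb10, which replaces Psmb7, was lower at CPM 42.3, 41, 49.1 and 39.7 in BM-Treg replicates 1 to 4 and 30, 39.5, 35.8 and 45.4 in SP-Treg replicates 1 to 4. It was the only subunit of the 3 with a positive log2 fold change, and it did not pass (log2 fold change 0.19, SE 0.13, adjusted p = 0.429).

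Tap1 and Tap2 form the peptide transporter. Tap1 had CPM 212, 225, 254 and 235 in BM-Treg replicates 1 to 4 and 244, 268, 231 and 249 in SP-Treg replicates 1 to 4, and Tap2 had CPM 46.1, 36, 34 and 46 in BM-Treg replicates 1 to 4 and 44, 48.6, 45.2 and 48.1 in SP-Treg replicates 1 to 4. Tap1 was several times the level of Tap2 also per length, with mean FPKM of 119 against 18.4 over all libraries. Neither passed the test (Tap1 log2 fold change -0.10, SE 0.10, adjusted p = 0.587; Tap2 log2 fold change -0.20, SE 0.12, adjusted p = 0.362). Tapbp, the bridge between the transporter and class I, was the steadiest at CPM 165, 178, 182 and 154 in BM-Treg replicates 1 to 4 and 171, 182, 164 and 162 in SP-Treg replicates 1 to 4. Its interval was the narrowest of the 33 together with that of Nlrc5 (95% interval of the log2 fold change −0.19 to 0.18). Its relative Tapbpl, a peptide editor, was at 64.3 ± 7.28 in BM-Treg against 59.5 ± 2.2 in SP-Treg CPM (log2 fold change 0.11, SE 0.11, adjusted p = 0.582).

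Class II mRNA was low in 7 of the 8 libraries and high in SP-Treg replicate 2. The 11 class II genes summed to 69.9, 94.7, 87.5 and 71 FPKM in BM-Treg replicates 1 to 4 and to 75.4, 259.5, 69 and 75.9 FPKM in SP-Treg replicates 1 to 4. SP-Treg replicate 2 was 3.44 times the median of the other SP-Treg libraries, and without it both tissues fell in the same range (80.8 ± 12.3 FPKM in BM-Treg, n = 4, and 73.4 ± 3.83 FPKM in SP-Treg, SD, n = 3). In bulk RNA, more cells that make class II and more class II mRNA per cell cannot be told apart. The B cell markers were also highest in that library, as given above, and their part in the class II values was not tested. In SP-Treg replicates 1, 3 and 4 the B cell markers summed to 18, 37.1 and 31.5 CPM. The class II genes summed there to 84.6, 95.6 and 100.2 CPM, and to 75.4, 69 and 75.9 FPKM.

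**Figure D3:**
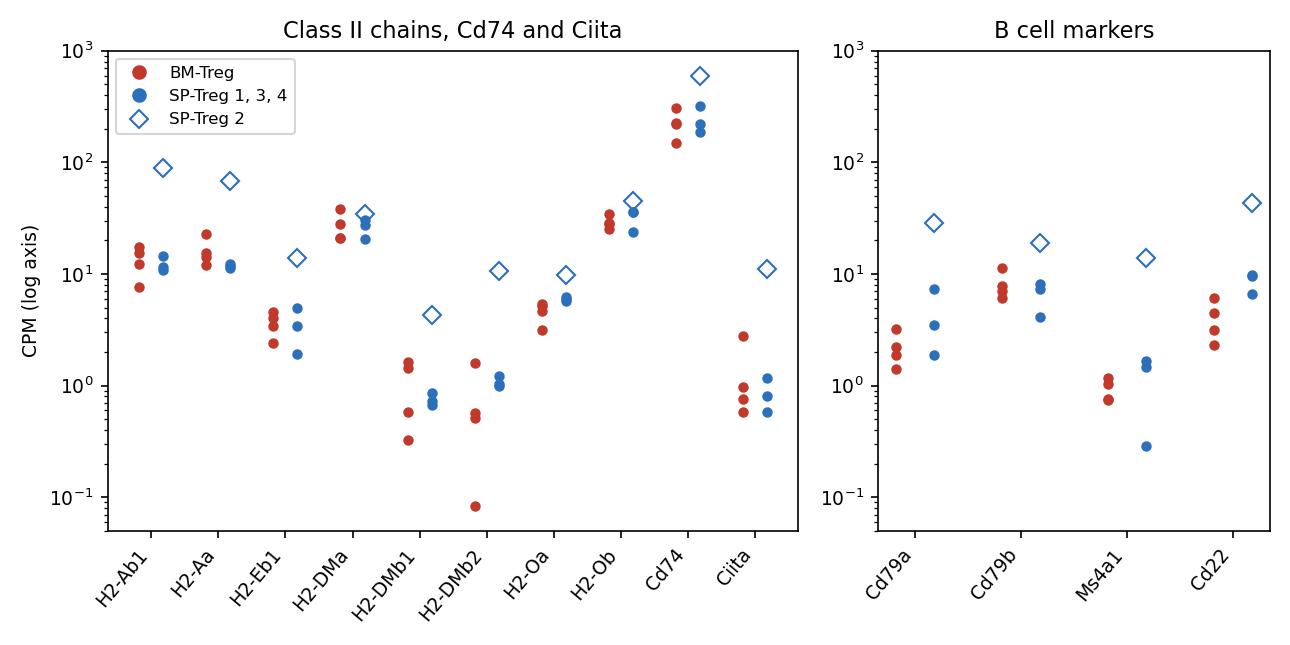
CPM on a log axis of 8 class II genes, Cd74 and Ciita (left) and of 4 B cell markers (right), with 1 point per library, BM-Treg in red, SP-Treg in blue and SP-Treg replicate 2 as an open diamond. The diamond is the top SP-Treg point in every column, at 88.5 CPM for H2-Ab1 and at 43.3 CPM for Cd22.

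H2-Ab1 (chr17:34263209-34269418), the β chain of I-A, had CPM 7.66, 17.6, 12.4 and 15.3 in BM-Treg replicates 1 to 4 and 14.6, 88.5, 11.5 and 10.9 in SP-Treg replicates 1 to 4. H2-Aa (chr17:34282744-34287827), its α chain, had CPM 15.3, 23, 14.1 and 12 in BM-Treg replicates 1 to 4 and 12.3, 68.8, 11.3 and 11.8 in SP-Treg replicates 1 to 4. In both genes SP-Treg replicate 2 was 7.67 and 5.82 times the median of the other SP-Treg libraries, and the rest of the libraries overlapped. Neither passed the test with all libraries (H2-Ab1 log2 fold change -1.24, SE 0.82, adjusted p = 0.433; H2-Aa log2 fold change -0.68, SE 0.70, adjusted p = 0.625) or without SP-Treg replicate 2 (log2 fold changes 0.10 and 0.45, adjusted p = 0.873 and 0.246). H2-Eb1, the β chain of I-E, had CPM 3.45, 4.03, 2.41 and 4.59 in BM-Treg replicates 1 to 4 and 4.96, 13.8, 1.92 and 3.45 in SP-Treg replicates 1 to 4. SP-Treg replicate 2 was the highest here too, and H2-Eb1 did not pass (log2 fold change -0.74, SE 0.52, adjusted p = 0.435; 0.06 without SP-Treg replicate 2). Its partner H2-Ea-ps, which is a pseudogene in C57Bl/6 mice, was at 0 in all 8 libraries.

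The genes that edit class II peptides split by how far SP-Treg replicate 2 stood out. H2-DMb2, a β chain of H2-DM, was at 10.6 CPM there and at 0.0835 to 1.59 CPM in the other 7 libraries, and its near copy H2-DMb1 at 4.3 CPM against 0.328 to 1.62 CPM. Their α chain H2-DMa was not set apart, with 34.3 CPM in that library and 20.5 to 38.3 CPM in the others, BM-Treg replicate 3 being the highest. H2-DMb2 had the largest fold change of the 33 and did not pass (log2 fold change -2.28, SE 0.97, adjusted p = 0.199; −0.62 and adjusted p = 0.645 without SP-Treg replicate 2). H2-DMb1 (log2 fold change -0.68, SE 0.67, adjusted p = 0.593; 0.42 and adjusted p = 0.751 without SP-Treg replicate 2) and H2-DMa (log2 fold change -0.05, SE 0.20, adjusted p = 0.92) did not pass either. H2-Oa, the α chain of the H2-DM inhibitor H2-O, had CPM 3.18, 5.42, 4.64 and 5.18 in BM-Treg replicates 1 to 4 and 6.25, 9.72, 5.69 and 6.02 in SP-Treg replicates 1 to 4. In CPM SP-Treg lay above BM-Treg in every library (in FPKM they overlapped), also without SP-Treg replicate 2, and the test was not passed (log2 fold change -0.59, SE 0.25, adjusted p = 0.172; −0.38 and adjusted p = 0.437 without it). Its β chain H2-Ob was several times higher, at CPM 34.5, 25.2, 27.9 and 28.6 in BM-Treg replicates 1 to 4 and 23.9, 45.1, 36.2 and 36 in SP-Treg replicates 1 to 4, with overlap between the groups (log2 fold change -0.28, SE 0.17, adjusted p = 0.351).

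Cd74, the invariant chain, was the exception to the low level of class II genes. It had FPKM 133, 201, 275 and 182 in BM-Treg replicates 1 to 4 and 289, 478, 144 and 180.2 in SP-Treg replicates 1 to 4, so that it exceeded the sum of all class II chains in every library. SP-Treg replicate 2 was again the highest and BM-Treg replicate 1 the lowest, and the difference did not pass with all libraries (log2 fold change -0.54, SE 0.41, adjusted p = 0.493) or without SP-Treg replicate 2 (−0.09 on the log2 scale, adjusted p = 0.884). Ciita (chr16:10488178-10527564), the transactivator of class II genes and of Cd74, had CPM 0.766, 2.78, 0.963 and 0.585 in BM-Treg replicates 1 to 4 and 0.575, 11.2, 1.17 and 0.807 in SP-Treg replicates 1 to 4. It was 13.8 times the median of the other SP-Treg libraries in SP-Treg replicate 2, and BM-Treg replicate 2 was the next highest. It did not pass (log2 fold change -1.38, SE 1.0, adjusted p = 0.462), and without SP-Treg replicate 2 its log2 fold change was 0.61 (adjusted p = 0.616). Cd74 in the 7 other libraries was thus at 150.1 to 318 CPM while Ciita was at 0.575 to 2.78 CPM.

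Promoter windows of class II genes are shown to set genes that were high in SP-Treg replicate 2 (H2-Aa and H2-Eb1) beside H2-Ob. H2-Ob was highest in that library too, but by less (45.1 CPM, against 23.9 to 36.2 CPM in the other libraries). AACNNATGA, of the X box type with the bases that run into the X2 box, was searched on both strands with the 4 motifs above, and matches overlapped in 0 of the 39 windows of the 36 genes. Capitals mark the matches in the windows from 180 to 3 bases before the start of H2-Aa (chr17:34287826-34288003, minus strand), H2-Eb1 (chr17:34305687-34305864, plus strand) and H2-Ob (chr17:34238725-34238902, plus strand), read along each gene's own strand.
H2-Aa: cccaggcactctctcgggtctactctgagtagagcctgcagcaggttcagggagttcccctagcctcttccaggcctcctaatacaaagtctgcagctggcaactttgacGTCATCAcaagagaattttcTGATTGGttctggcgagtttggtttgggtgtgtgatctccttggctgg
H2-Eb1: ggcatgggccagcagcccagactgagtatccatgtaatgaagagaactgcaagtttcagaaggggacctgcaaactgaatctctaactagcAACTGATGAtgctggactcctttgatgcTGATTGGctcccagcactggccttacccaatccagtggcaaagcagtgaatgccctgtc
H2-Ob: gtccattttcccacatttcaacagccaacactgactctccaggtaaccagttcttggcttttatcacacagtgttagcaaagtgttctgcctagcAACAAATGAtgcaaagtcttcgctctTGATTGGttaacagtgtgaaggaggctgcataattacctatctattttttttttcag

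The X box type letters were in 4 of the 8 class II genes with a window (H2-DMb1, H2-DMb2, H2-Eb1 and H2-Ob), in 0 of 22 class I genes and in 2.85% of all 32851 windows. The inverted CCAAT letters were in 7 of the 8, among them all of H2-Aa, H2-Eb1, H2-Oa and H2-Ob, while the NF-κB and IRF types were in 0 of 8. The 4 genes with the X box type letters were compared in SP-Treg replicate 2 with the median of the other SP-Treg libraries. H2-DMb2 was at 10.3, H2-DMb1 at 5.86, H2-Eb1 at 4 and H2-Ob at 1.25 times that median. H2-Aa and H2-Oa lack these letters and were at 5.82 and 1.62 times it. A window without these letters can still hold an X box, since no other form of it was searched. The other matches of H2-Aa (TGATGAC and TGATTGG) are of types found in class I windows too. The letters were picked after the windows had been read, and their part in these levels was not tested. H2-Ab1 had no entry.

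Class I was set against class II within each library. Summed class I FPKM was 5069, 6504, 6766 and 5938 in BM-Treg replicates 1 to 4 and 6665, 5963, 4857 and 5592 in SP-Treg replicates 1 to 4, a spread of 1.39 times between the lowest and the highest library, against 3.76 times for class II (1.37 times without SP-Treg replicate 2, with class I still at 1.39). The ratio of class I to class II was 72.5, 68.6, 77.3 and 83.6 in BM-Treg and 88.4, 23, 70.4 and 73.7 in SP-Treg. All libraries but SP-Treg replicate 2 fell between 68.6 and 88.4. The mean log2 ratio was 6.24 ± 0.12 in BM-Treg and 5.83 ± 0.88 in SP-Treg (SD, n = 4 each), and 6.27 ± 0.17 in SP-Treg without replicate 2. With all libraries the difference of the means was below the SD of SP-Treg and above that of BM-Treg. Without SP-Treg replicate 2 it was below both SDs. With the classical chains alone the ratio was 92 to 146 in the same 7 libraries and 22.7 in SP-Treg replicate 2. The chains of I-A and I-E made 35.4% to 51.7% of class II FPKM in those 7 libraries and 72.7% in SP-Treg replicate 2.

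**Figure D4:**
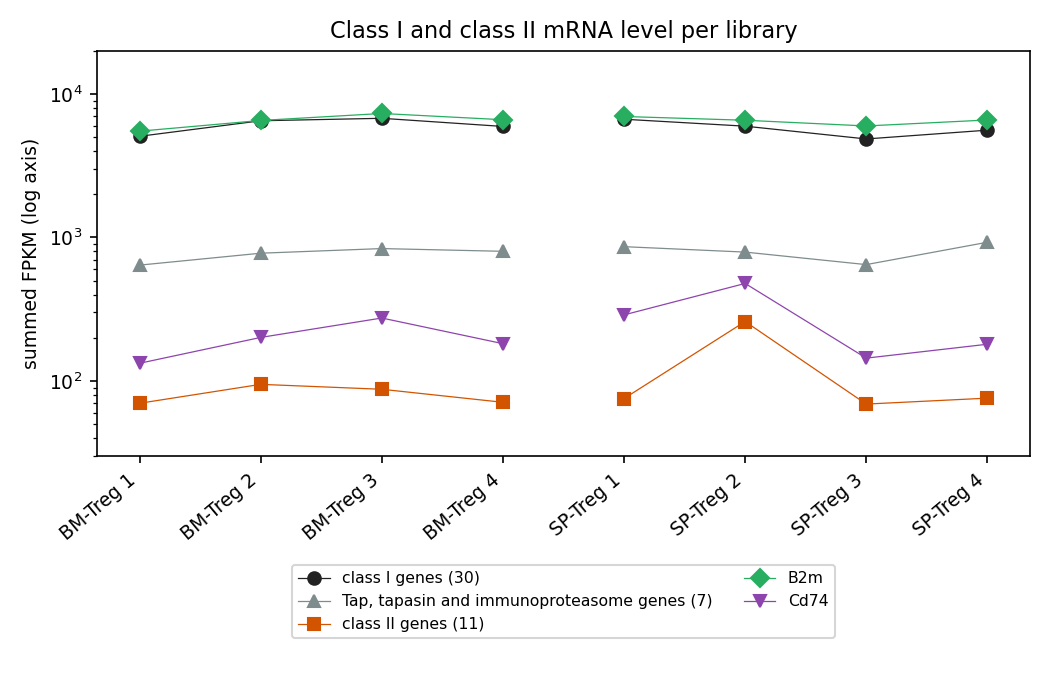
Summed FPKM per library on a log axis for 30 class I genes, 7 genes of peptide loading and the immunoproteasome, and 11 class II genes, with B2m and Cd74 as single genes. Class I, B2m and the loading genes vary little over the 8 libraries, and so does class II over 7 of them, while it reaches 259.5 FPKM in SP-Treg replicate 2 against at most 94.7 FPKM in the others.

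The transactivator of class I, Nlrc5 (chr8:94472763-94527272, typed as a lincRNA in the tables), was expressed at CPM 288, 279.8, 265 and 249 in BM-Treg replicates 1 to 4 and 301, 311, 318 and 341 in SP-Treg replicates 1 to 4. All SP-Treg libraries were above all BM-Treg libraries in CPM but not in FPKM, and BM-Treg replicate 4, the one of batch 3, was the lowest. The difference was small and did not pass after adjustment (log2 fold change -0.23, SE 0.09, adjusted p = 0.15), and in batch 3 alone the log2 fold change was −0.35. Nlrc5 was at 106 FPKM on average, while Ciita was at 0.11 to 0.56 FPKM in 7 libraries and at 2.04 FPKM in SP-Treg replicate 2.

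Some genes listed as accessory to the pathway, which are not part of the 52, did differ. These accessory lists were chosen with earlier results of these data known, so their share called is a description and not a test. Of 32 listed accessory genes 30 were tested, and 7 fell and 0 rose in BM-Treg (23.3% called, against 8.75% of all genes tested and 5.02% called lower). Their median log2 fold change was −0.23, and −0.21 without SP-Treg replicate 2. Of 9 transcription factors of class I and class II genes, 2 fell, the interferon regulatory factors Irf1 (log2 fold change -0.43, SE 0.12, adjusted p = 0.0394) and Irf2 (log2 fold change -0.43, SE 0.11, adjusted p = 0.0254). The other 7, the factors of the X and Y boxes Rfx5, Rfxap, Rfxank, Nfya, Nfyb, Nfyc and Creb1, did not pass, with Rfxank furthest from 0 (log2 fold change 0.29, SE 0.17, adjusted p = 0.315). Irf1 had CPM 82.5, 102, 111 and 123 in BM-Treg replicates 1 to 4 and 144, 129, 134 and 158 in SP-Treg replicates 1 to 4, and Irf2 had CPM 93.4, 102, 116 and 92.9 in BM-Treg replicates 1 to 4 and 153, 141, 128 and 120.4 in SP-Treg replicates 1 to 4. In both no BM-Treg library reached the lowest SP-Treg library in CPM, while in FPKM the groups overlapped. Of the marker genes of other cells, Cd8a (adjusted p = 0.0293), Ebf1 (adjusted p = 0.0332) and Pacsin1 (adjusted p = 0.0415) were called lower in BM-Treg as well, and their part in the values of the accessory genes was not tested. Without SP-Treg replicate 2 Cd8a still passed (adjusted p = 0.0142), and Ebf1 and Pacsin1 did not (adjusted p = 0.0981 and 0.102).

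Of the 10 genes listed under peptide supply and class I loading, 4 fell. They were the endoplasmic reticulum chaperones Calr (log2 fold change -0.55, SE 0.10, adjusted p = 0.0029), Canx (log2 fold change -0.59, SE 0.11, adjusted p = 0.00376) and Hspa5 (log2 fold change -0.65, SE 0.12, adjusted p = 0.00441), and the proteasome activator subunit Psme2 (log2 fold change -0.46, SE 0.11, adjusted p = 0.0222). Calr had CPM 153, 140.4, 157 and 155 in BM-Treg replicates 1 to 4 and 218, 223, 199.9 and 244 in SP-Treg replicates 1 to 4, and Canx had CPM 157, 161, 169 and 162 in BM-Treg replicates 1 to 4 and 292, 219, 217 and 250.5 in SP-Treg replicates 1 to 4. In each of the 4 the groups did not overlap, in CPM or in FPKM. BM-Treg replicate 4 lay within the range of the other BM-Treg libraries for Calr, Canx and Hspa5. For Psme2 it was at 117.6 CPM, above the others of its tissue (89.3 to 101.8 CPM) and below SP-Treg (from 125.4 CPM). The other 6 did not pass by edgeR, among them the constitutive subunits Psmb5, Psmb6 and Psmb7. Pdia3 (adjusted p = 0.0712) and the trimming peptidase Erap1 (adjusted p = 0.0583) were also among them. The groups of Pdia3 and of Erap1 did not overlap in CPM but did in FPKM. Of 8 genes of class II peptide handling and turnover, 1 fell, the protease cathepsin S that trims the invariant chain (Ctss, log2 fold change -0.72, SE 0.20, adjusted p = 0.0476), with overlap, since BM-Treg reached 147 CPM and SP-Treg began at 144 CPM. Calr, Canx and Hspa5 stayed past the threshold with each of the 8 libraries left out in turn, while Irf1, Irf2, Psme2 and Ctss did so in 1, 3, 3 and 2 of the 8. With limma-trend on log2(FPKM + 1) Hspa5 alone passed (adjusted p = 0.0234), and the other 6 had adjusted p from 0.0708 to 0.218 with the same sign. With batch as a term, which called 258 of all genes tested, none of the 7 passed by edgeR (adjusted p from 0.108 to 0.599), and within batch 3 all 7 had negative log2 fold changes, from -0.99 to -0.19.

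**Figure D5:**
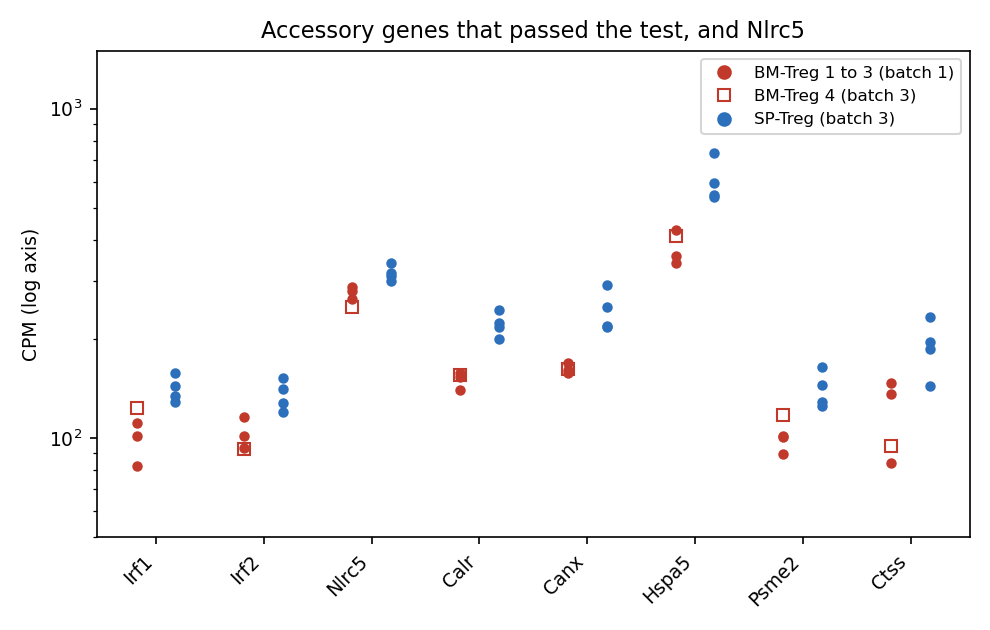
CPM on a log axis of the 7 accessory genes that fell in BM-Treg and of Nlrc5, which did not pass, with 1 point per library. BM-Treg is red, with replicate 4 (batch 3) as an open square, and SP-Treg is blue, and the groups overlap only in Ctss.

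The transcript tables give a share of each gene's expected counts to each transcript, as estimates that are uncertain where transcripts overlap. The counts of H2-Q7 lay mostly in a transcript that GENCODE M21 types as a retained intron (ENSMUST00000173788), with 92.5% ± 2.4 in BM-Treg and 89.1% ± 5.43 in SP-Treg (SD, n = 4 each). The same held for H2-Q4 (92.5% and 94.8%), H2-Q10 (100% and 99.9%) and Tap2 (91.3% and 87.2%). H2-K1 was mostly in a protein-coding transcript (ENSMUST00000025181), at 55.8, 56.3, 55.9 and 57.8% in BM-Treg replicates 1 to 4 and 63.1, 61.3, 59.3 and 57.9% in SP-Treg replicates 1 to 4, where the SP-Treg values were all above the BM-Treg values, though only just (57.8% against 57.9%). The tissues did not overlap in 5 of 63 transcripts of the tested genes among the 52 (7.94%), counting those with a share of 10% or more in some library, against 4.22% of 23992 such transcripts over all genes tested. The other 4 were a transcript each of Psmb8 (ENSMUST00000173441) and Tap1 (ENSMUST00000171148) and a pair of Psmb9 (ENSMUST00000174576 and ENSMUST00000178857). Their mean shares in BM-Treg against SP-Treg were 14.6% against 11.3% (Psmb8), 9.66% against 5.97% (Tap1), and 38.4% against 29.8% and 23.9% against 27.5% (Psmb9). Cd74 had its larger share in its shorter isoform (ENSMUST00000050487), with 80.9% ± 1.4 in BM-Treg and 76.6% ± 5.43 in SP-Treg, and these overlapped.

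Near copies among H2 genes limit what the counts of a single gene mean. Of all stretches of 80 bases (the read length) in the M21 transcripts of H2-T22, 37.8% were also found in another gene's transcripts, and for H2-T10 33.9%. For H2-Q4, H2-Q5, H2-Q6, H2-Q7 and H2-Q10 the share was 11.6% to 19.7%, and for H2-DMb1 and H2-DMb2 14.9% and 15%, mostly with each other. Part of the values of these genes depends on how the counting program divided shared reads, and they are uncertain to that degree. H2-K1 and H2-D1 shared only 2.43% and 5.02%, and B2m, H2-Aa, H2-Ab1, H2-Eb1, Cd74 and Nlrc5 0%.

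The remaining 19 genes did not pass the expression filter. Of these, 13 were at 0 in every library: the class I genes H2-M1, H2-M5, H2-M9, H2-M11, H2-M6-ps and the 6 of the H2-M10 group, and the class II pseudogenes H2-Ea-ps and H2-Pb. H2-T3, the thymus leukaemia antigen, was at 0.179 CPM on average in BM-Treg, close to the 0.204 CPM of SP-Treg. H2-Eb2 had counts in a single library, SP-Treg replicate 2, at 0.877 CPM. The other 4, H2-Q3, H2-Bl, H2-Q1 and H2-M2, stayed at or under 0.398 CPM in every library. A count of 0 allows up to 3 counts, or 0.137 CPM in the deepest and 0.241 CPM in the shallowest library, which covers counting error only.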

How the data were processed

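RNA (15 ng) of sorted cells was amplified with NuGEN's SPIA kit, and single-end reads had 80 nt. The submitters' processing notes name cutadapt 1.9, STAR 2.5.2a, RSEM 1.2.30 and GRCm38, and the annotation is not given in the sources used here. The authors deposited expected counts (estimated reads per gene and per transcript, not normalized) and FPKM (the authors' values per length and depth). RSEM divides reads that fit several genes. Some gene names were stored as dates, and 5 of 93 list entries were matched by identifier.

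Expected counts were rounded, filtered by edgeR's default (13397 of 38215 genes), scaled by TMM and tested with edgeR 4.0.16 (quasi-likelihood, robust, no covariate, Benjamini-Hochberg, 0.05) in R 4.3.3, since the methods name no test. On simulated counts with 13259 genes kept, edgeR recovered 90% of changes of 1 and 100% of changes of 2 (log2), with 4.52% false calls. The simulation gave every gene the same dispersion, with no batch and no outlying library, and changed well-counted genes only. Its rates therefore do not carry over to genes with few counts or to those set apart by SP-Treg replicate 2. DESeq2 1.42.0, limma 3.58.1 (voom, and trend on FPKM), other filters and size factors, a batch term, the replicate block, batch 3 alone and each library left out were the alternatives. Intervals of 95% are approximate, taken as a normal quantile times the SE, and are narrower than edgeR's test allows. For H2-T22 the interval of -0.64 to -0.0011 is negative throughout, while edgeR's unadjusted p was 0.0712. Sums over genes carry no test. Replicates of a tissue differed beyond sampling noise (chi-square per degree of freedom 14.2 to 92.4).

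The genes and lists were chosen with earlier results of these data known, and the motif letters after the promoter windows had been read. Fold changes are given for every tested gene among the 52, and values per library for a list of main genes and for those without overlap. Of the accessory lists, called genes and otherwise the largest change were named, and others were added after their values were seen. A gene of the accessory lists and another of the marker lists are not reported here, and the counts and sums leave them out. Coordinates are those of the tables, which overlap GENCODE M21 for all 52. RefSeq promoter windows were used for sequences.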

Additional observations from a re-analysis of the deposited data

Results flagged for a closer look

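Some values lay far from the other 3 libraries of their tissue by Dixon's criterion, which chance meets in about 1 of 20 groups. SP-Treg replicate 2 was far above the others in H2-Ab1 (88.5 CPM), H2-Aa (68.8 CPM), Ciita (11.2 CPM), H2-DMb2 (10.6 CPM), H2-Oa (9.72 CPM) and H2-DMb1 (4.3 CPM), in the summed class II FPKM (259.5) and in the summed level of 9 B cell markers (147 CPM). Their relation was not tested. In class I and the immunoproteasome the distant values were low ones: H2-Q5 in SP-Treg replicate 1 (128 CPM), H2-T23 in SP-Treg replicate 3 (174 CPM), H2-Q6 in BM-Treg replicate 1 (609.8 CPM) and Psmb8 in BM-Treg replicate 1 (172 CPM).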

How the results depend on the processing

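The count of called genes among the 52 was 0 in every fit but that without SP-Treg replicate 3 (1, H2-Q4), so that leaving out each library gave 0 to 1. Over all genes, calls fell from 1172 to 765 and 728 with limma-trend on log2(FPKM + 1) and log2(FPKM + 0.1), to 258 with a batch term and to 427 at an adjusted p of 0.01, and leaving out each library gave 690 (without BM-Treg replicate 2) to 1048. DESeq2 called 1703. The difference of the log2 ratio of class I to class II between the tissues was 0.40 and ranged from −0.03 (without SP-Treg replicate 2) to 0.61 when a library was left out; in batch 3 alone it was 0.55. Replicate numbers did not pair the libraries (correlations of deviations −0.106, 0.0595, −0.176 and 0.0398 for numbers 1 to 4), and with the replicate block 948 genes and 0 of the 33 were called. The alternative that sums H2-Q genes apart and the run without SP-Treg replicate 2 for counts and medians were chosen after seeing the data.

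Uncalled log2 fold changes that changed sign are given with their values, and the cause was not tested. With a batch term they were H2-D1 0.10, H2-K1 0.03, B2m 0.04, H2-K2 -0.27, H2-T10 0.35 and H2-T22 0.04. With limma-trend on log2(FPKM + 1) they were H2-K1 0.07, H2-T24 0.24, Psmb8 0.01, Tap1 0.16 and Tapbp 0.16. With limma-trend on log2(FPKM + 0.1) they were H2-K1 0.07, H2-T24 0.26, Psmb8 0.01, Tap1 0.16 and Tapbp 0.16. With DESeq2's size factors in edgeR they were H2-T24 0.0049 and Tapbp 0.0023. With DESeq2's own test they were H2-T24 0.0045 and Tapbp 0.0027. With no filter beyond 1 count they were H2-T24 0.02 and Tapbp 0.01. With at least 10 counts in every library they were H2-T24 0.03 and Tapbp 0.02. With each library left out in turn they ranged from -0.24 to 0.03 for H2-D1, -0.16 to 0.03 for H2-K1, -0.12 to 0.04 for B2m, -0.09 to 0.08 for H2-T24, -0.93 to 0.45 for H2-Aa, -1.53 to 0.10 for H2-Ab1, -0.26 to 0.08 for H2-DMa, -1.01 to 0.42 for H2-DMb1, -1.04 to 0.06 for H2-Eb1, -0.19 to 0.0044 for Psmb8, -0.04 to 0.04 for Tapbp and -2.11 to 0.61 for Ciita. Fold changes of genes under about 5 CPM rest on few counts, and 4 libraries a tissue set the precision of the rest.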

Other observations

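MHC-like genes that lie outside the H2 complex were measured in the same libraries. Cd1d1, which presents lipids to NKT cells, had CPM 12.5, 14.3, 11.4 and 13.9 in BM-Treg replicates 1 to 4 and 7.4, 8.77, 5.52 and 11.4 in SP-Treg replicates 1 to 4, with BM-Treg above SP-Treg in all libraries, and it did not pass the test of edgeR (log2 fold change 0.65, SE 0.21, adjusted p = 0.0664). Mr1, which presents vitamin metabolites to MAIT cells, was at 21.7 ± 1.56 in BM-Treg against 22.7 ± 2.58 in SP-Treg CPM (SD, n = 4 each; log2 fold change -0.06, SE 0.13, adjusted p = 0.817). Cd1d2 was tested at about 1 CPM or less and did not pass, and Fcgrt and Hfe were under the expression filter.

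Of the ubiquitin ligases that turn over class II molecules, March1 was at 4.94 CPM in SP-Treg replicate 2 and at 0.144 to 1.34 CPM in the other 7 libraries, while March8 stayed at 0.602 to 1.22 CPM in all. The lysosomal reductase Ifi30 was also highest in SP-Treg replicate 2 (19.5 CPM against 10 to 12.9 CPM), as by a small margin was Ctsd (182 CPM against 112 to 171 CPM), and Ctss, Ctsb, Ctsl and Lgmn were not.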
